A study of Homo sapiens with 16 samples.

Results

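Ribosome biogenesis genes encode the nucleolar machinery that makes ribosomes. A list of 40 such genes was examined in 4 established human lines of T-cell acute lymphoblastic leukaemia after exposure to PD-0332991 or to its vehicle. A gene counted as measured where the annotation of the array gave it a probe set with exactly 1 gene symbol, and where it had several, the brightest by mean log2 value over the 16 arrays was used. By this rule 35 of the 40 genes were measured, out of 19775 genes in all. NOP56, DKC1, BOP1, DDX18 and GNL3 had no such probe set and were not analysed here. All 35 were brighter, in each of the 8 groups, than the median of all deposited values, which was the level used to set dim genes aside, so each was among the 13483 genes tested.

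The tested cells were CUTL1, CEM, DND41 and Jurkat, each with 2 arrays after 15 h in 1 uM PD-0332991 and 2 arrays after 15 h in DMSO. The drug, also called palbociclib, blocks CDK4 and CDK6, which act with the D-type cyclins to carry cells through G1. All groups were grown in the same kind of medium. Whether the 2 arrays of a group hold RNA of separate cultures is not stated, and the p-values therefore reflect array-to-array spread that may be technical.

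A ribosome begins as a long precursor RNA that RNA polymerase I transcribes in the nucleolus. Small nucleolar ribonucleoproteins (snoRNPs) modify this precursor, and large sets of assembly factors fold and cut it into the RNAs of the small and the large subunit. The pathway is among the best known targets of MYC, a transcription factor that drives growth in T-cell leukaemia. MYC binds with its partner MAX to the E-box, a short DNA motif with the letters CACGTG.

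E-boxes were common near the starts of these genes. A promoter window, 250 bases before to 50 bases after the annotated start (RefSeq, GRCh38.p14), was found for 32 of the 40 genes, and 15 of the 32 genes (46.9%) held an exact E-box, which reads the same on both strands. Among the genes tested that had a window, 1351 of 10826 (12.5%) held one, and among all 35116 windows of this length the share was 7.26%. The motif also lay close to the start. In 14 of the 15 genes it fell within 50 bases on either side, against 567 of the 1351 tested genes with an E-box (42.0%). LYAR was the exception, with its E-box 64 bases upstream. The stretches below show the E-box, in capitals, with 12 bases on either side, for the 4 genes described in full further on and for RRP9 and WDR43, where it touched the start most closely.
PES1 (chr22:30591880-30591909, minus strand, E-box from base 14 after the start): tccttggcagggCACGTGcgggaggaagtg
MRTO4 (chr1:19251807-19251836, plus strand, from base 15): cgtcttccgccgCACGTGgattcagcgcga
LYAR (chr4:4290068-4290097, minus strand, from 64 bases before the start): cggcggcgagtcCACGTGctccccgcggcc
UTP4 (chr16:69132621-69132650, plus strand, from 16 bases before): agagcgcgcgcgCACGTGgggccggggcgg
RRP9 (chr3:51941892-51941921, minus strand, from 5 bases before): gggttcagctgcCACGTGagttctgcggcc
WDR43 (chr2:28894658-28894687, plus strand, from base 4): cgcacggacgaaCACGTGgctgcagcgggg

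**Figure D1:**
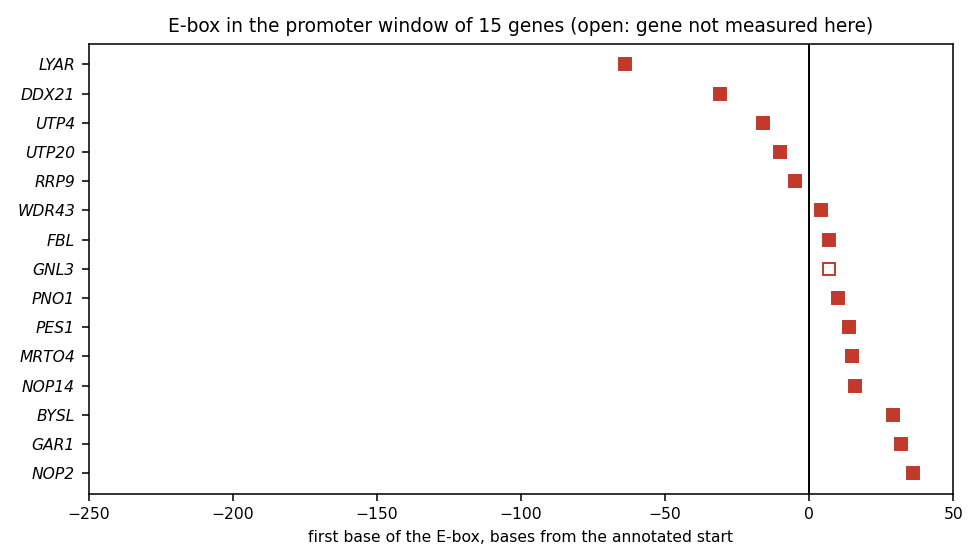
First base of the E-box, in bases from the annotated start (0 on the axis), for the 15 genes whose promoter window held one; GNL3, drawn open, was not measured. All squares but that of LYAR lie within 50 bases of the start.

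Motifs of E2F factors, which act directly below CDK4, CDK6 and the retinoblastoma protein, were about as frequent in the same windows as over the tested genes. The letters TTTCCCGC, TTTGGCGC, TTTCGCGC and TTTGCCGC were searched on both strands, and 2 of the 32 genes held 1 of them, PES1 and UTP15, against 6.29% of the tested genes with a window. In PES1 the E2F motif lies upstream of the start and does not overlap the E-box. The PES1 window, from 250 bases before to 30 bases after the start, shows both motifs in capitals, first the E2F motif (read on the other strand) and then the E-box.
PES1 (chr22:30591881-30592160, minus strand): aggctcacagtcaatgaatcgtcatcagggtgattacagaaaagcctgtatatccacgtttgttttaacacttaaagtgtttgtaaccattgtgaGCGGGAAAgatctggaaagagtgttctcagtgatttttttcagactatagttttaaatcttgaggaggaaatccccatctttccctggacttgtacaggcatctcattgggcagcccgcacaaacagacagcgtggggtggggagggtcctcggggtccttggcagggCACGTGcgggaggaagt
A match is a description of these letters and not a bound site.

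Ribosome assembly genes outside the list resembled it in part. Windows with an E-box numbered 15 of 40 for the other small subunit genes and 14 of 46 for the other large subunit genes, but 4 of 63 for the ribosomal protein genes and 1 of 12 for the RNA exosome genes.

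The cells carried T-cell transcripts. All 9 T-cell markers examined were above the dim level in every group, and 8 of the 9 rose on average, with summed intensities of 29036 to 42553 on PD-0332991 arrays and 25066 to 37352 on DMSO arrays. Of 5 myeloid markers 4 were below the dim level in every group, MPO, LYZ, CD14 and ITGAM, as were 2 of 5 B-cell, 3 of 5 NK, 2 of 7 fibroblast and endothelial and 1 of 5 epithelial markers. Of 5 erythroid and megakaryocyte markers 0 were below it in every group and 4 were at or above it in every group. Their summed intensities were 317 to 372 on PD-0332991 arrays and 294 to 436 on DMSO arrays. Other lists differed between lines and with the drug. Fibroblast and endothelial markers summed to 374 to 383 in CUTL1 with PD-0332991 and 350 to 359 with DMSO, against 1486 to 2102 with PD-0332991 and 1212 to 1661 with DMSO in the other lines. B-cell markers summed to 1862 to 2258 with PD-0332991 and 1510 to 1586 with DMSO in DND41, and to 300.2 to 317 and 287 to 312 in CUTL1. NK markers were highest in CUTL1, at 574 to 615 with PD-0332991 and 477 to 576 with DMSO. The part of these marker differences in the results below was not tested. Deposited intensities ran from 4.42 to 26097, array medians from 28.5 to 31.2, and replicate arrays correlated across the tested genes at r of 0.993 to 0.998. In bulk RNA, fewer cells of a kind and less RNA per cell cannot be told apart. The number of arrays limits the precision.

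The response of these genes to PD-0332991 depended on the line. In CUTL1 8 of the 35 genes rose and 2 fell, with a median log2 change of 0.12. In the other lines the balance was the opposite, with 0 rising and 9 falling in CEM (median -0.16), 0 and 16 in DND41 (-0.22) and 0 and 5 in Jurkat (-0.04). Calls are those of limma at an adjusted p under 0.05 over all genes tested. At an unadjusted p under 0.05, 1 of the 35 was higher in CEM and 0 in DND41 and in Jurkat, where 22.3%, 17.5% and 22.6% of all tested genes were. Over all tested genes 14.6% were called higher and 12.7% lower in CUTL1, 16.5% and 11.6% in CEM, 11.1% and 17.1% in DND41 and 15.6% and 11.4% in Jurkat, with medians of 0.01 to 0.05. Read against these shares, the rises in CUTL1 (22.9% of the list) and the falls in CEM (25.7%) and DND41 (45.7%) were more frequent than over all genes, and the falls in Jurkat (14.3%) were close to the background. The excess of rises in CUTL1 was not kept in every setting: when probe sets were averaged per gene 4 of the 35 rose, where 12.7% of all genes did, and 4 rose without DMSO replicate 1 or PD-0332991 replicate 1 of CUTL1. Without _x_at and _s_at probe sets the falls in CEM were close to the background, where 9.53% of all genes fell (counts at the end). The DND41 split depends on how arrays are scaled. Over all genes, 15.98% were higher and 13.1% lower there after quantile normalization, and 6.68% and 21.4% with arrays centred on 1 median, while 12 and 21 of the 35 genes were then lower.

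Array by array, both PD-0332991 arrays lay above both DMSO arrays for 21 of the 35 genes in CUTL1 and below them for 8, against 37.5% and 25.3% of all tested genes. In CEM the counts were 1 above and 22 below (35.3% and 29.4% of all genes), in DND41 2 and 27 (31.7% and 32.8%) and in Jurkat 7 and 16 (38.6% and 25.2%). CUTL1 had the highest change of the 4 lines for 28 of the 35 genes and the lowest for 0. Over all genes tested those shares were 24.0% and 21.6%. With each array left out in turn, CUTL1 had the highest change for 27 to 30 of the 35, a count added after the data were seen.

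**Figure D2:**
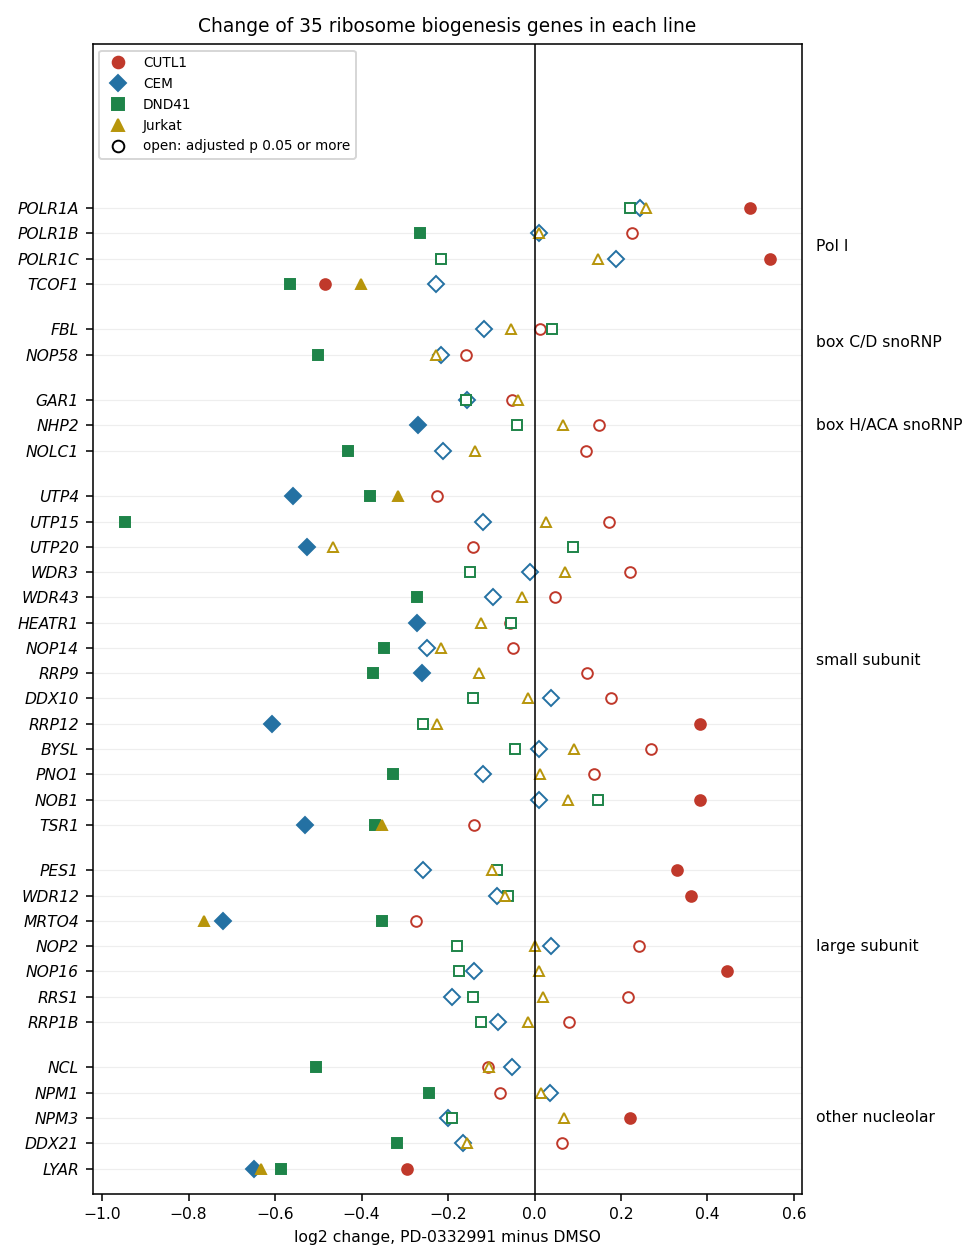
Log2 change (PD-0332991 minus DMSO, horizontal axis) of each of the 35 genes in CUTL1, CEM, DND41 and Jurkat, grouped by role; filled symbols passed an adjusted p under 0.05. The CUTL1 circles lie farthest right for 28 of the 35 genes.

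**Figure D3:**
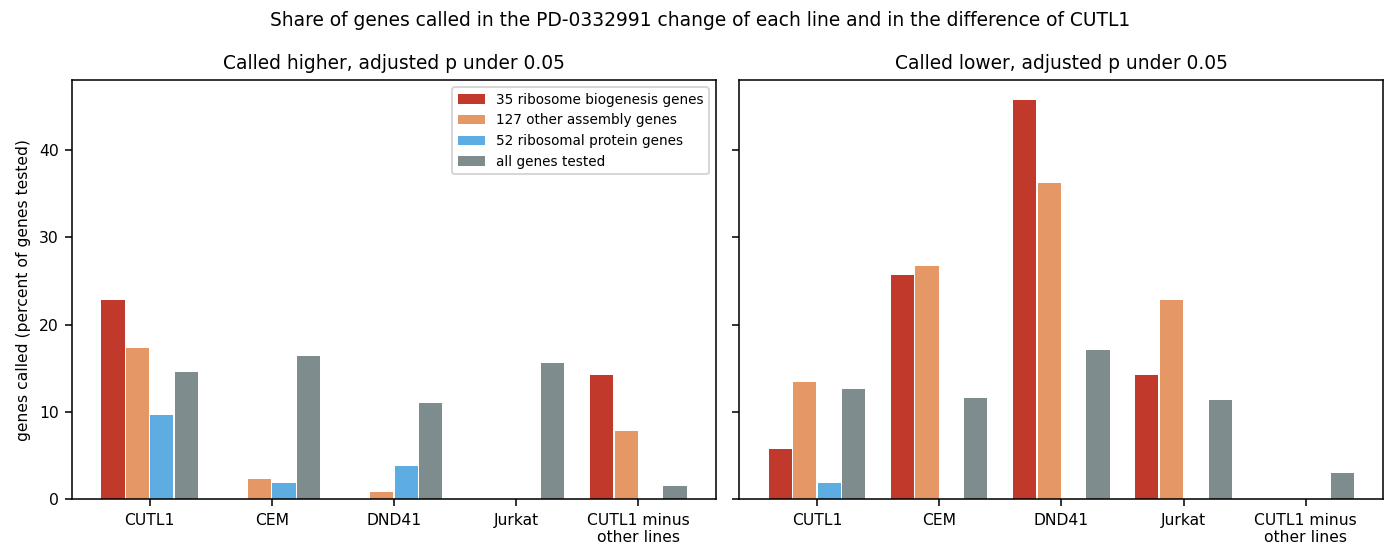
Percent of genes called higher (left) and lower (right) in each line, and in the difference between the change in CUTL1 and the mean change of the other lines, for the 35 ribosome biogenesis genes, 127 other assembly genes, 52 ribosomal protein genes and all genes tested. Among the 35 genes 22.9% were called higher in CUTL1 and 45.7% lower in DND41.

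The difference between CUTL1 and the other lines was tested as such. The change in CUTL1 exceeded the mean change of CEM, DND41 and Jurkat for 33 of the 35 genes, with a median difference of 0.28 on the log2 scale, against a median of 0.01 over all genes tested. The 2 exceptions were TCOF1 (-0.09) and NPM1 (-0.01), and both depended on the probe set. The other TCOF1 probe sets gave 0.20 and 0.15 and the other NPM1 probe sets 0.31 and 0.37. Of the 35 genes 5 were called (1.54% of all tested genes were, in that direction): NOP16, RRP12, WDR12, POLR1C and PES1. No gene was called lower, where 3.03% of all genes were, and at an unadjusted p under 0.05 the counts were 21 and 0, where 8.43% and 9.70% of all tested genes were. The count of 5 was 3 without DMSO replicate 1 of CUTL1, 2 without PD-0332991 replicate 1 of CUTL1 and 3 without PD-0332991 replicate 2. Against each other line by itself, the change in CUTL1 was called higher for 7 genes against CEM (1.36% of all tested genes, with 3.78% called lower), 11 against DND41 (3.6% and 3.55%) and 3 against Jurkat (0.927% and 1.62%). No gene was called lower in these 3 comparisons, by limma or at an unadjusted p under 0.05, where 17, 23 and 10 genes were higher (7.61%, 14.4% and 6.59% of all tested genes were). NOP16, RRP12 and WDR12 were the 3 against Jurkat and were called in all 3 comparisons, which share the CUTL1 arrays. UTP15 differed most from DND41, by 1.12, and RRP12 most from CEM, by 0.99.

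An F test over all 4 lines called 9 of the 35 genes (12.6% of all tested genes), the 5 above and UTP15, NHP2, PNO1 and NPM3.

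NOP16, a nucleolar factor of the large subunit, gave the smallest p of this difference. It stood at 11.25 and 11.24 on the PD-0332991 arrays of CUTL1, against 10.82 and 10.78 on its DMSO arrays, a gap far wider than either pair. CEM had 10.26 and 10.30 with PD-0332991 and 10.42 on both arrays with DMSO, DND41 11.10 and 11.04 against 11.24 and 11.24, and Jurkat 11.39 and 11.35 against 11.42 and 11.30. The treated arrays were thus above the vehicle arrays in CUTL1, below them in CEM and DND41, and overlapping in Jurkat. It rose by 0.45 in CUTL1 (SE 0.063, limma adjusted p = 0.000298), 1.36-fold, and the difference from the other lines was 0.55 (SE 0.073, adjusted p = 0.00198). A second NOP16 probe set of similar brightness gave 0.68, and 2 others, at mean log2 levels of 5.58 and 5.81, gave -0.08 and -0.31. With all 4 averaged the difference was 0.21 (limma adjusted p = 0.398) and the CUTL1 change 0.13 (adjusted p = 0.381).

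RRP12, which serves in the export and maturation of small subunits, showed the largest difference of the 35. CUTL1 had 8.36 and 8.26 with PD-0332991 against 7.90 and 7.95 with DMSO. In CEM it was at 8.04 and 8.02 against 8.68 and 8.59, in DND41 at 8.19 and 8.29 against 8.61 and 8.39, and in Jurkat at 8.69 and 8.84 against 9.09 and 8.90. No pair of groups overlapped, and the order was reversed in CUTL1 alone. RRP12 rose by 0.38 in CUTL1 (SE 0.095, limma adjusted p = 0.0107) and fell by 0.61 in CEM (SE 0.095, adjusted p = 0.000704), and DND41 (-0.26) and Jurkat (-0.23) did not pass. The difference was 0.75 (SE 0.11, adjusted p = 0.00313). It was lost with all probe sets averaged (0.27, adjusted p = 0.194) and with the probe set left after _x_at and _s_at sets were removed (0.37, adjusted p = 0.335). In the same settings the CEM change was -0.18 (adjusted p = 0.166) and -0.26 (adjusted p = 0.256). The 4 other probe sets averaged 4.38 to 5.62 on the log2 scale, near the dim level of 4.88.

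WDR12 and PES1 form, with BOP1, the PeBoW complex that large subunit precursors need. WDR12 was at 10.73 and 10.70 in treated CUTL1 cells, against 10.42 and 10.29 in their vehicle controls. In CEM it was at 10.31 and 10.36 with PD-0332991 and 10.43 and 10.41 with DMSO, in DND41 at 10.70 and 10.68 against 10.73 and 10.78, and in Jurkat at 11.01 and 11.04 against 11.14 and 11.04. By this probe set these last 3 lines moved by -0.09 to -0.06, none called. The other WDR12 probe sets were dimmer and moved otherwise. One, at a mean log2 level of 7.12, was called higher in CEM (0.40, limma adjusted p = 0.0374 over probe sets). It gave 0.26 in Jurkat and -0.29 in DND41, neither called. The dimmest, at 5.96, gave 0.05 in CEM, 0.21 in Jurkat and -0.50 in DND41, none called. WDR12 rose by 0.36 in CUTL1 (SE 0.065, limma adjusted p = 0.0016), and the difference was 0.43 (SE 0.076, adjusted p = 0.00763), with an adjusted p of 0.0599 without PD-0332991 replicate 1 of CUTL1 and of 0.0919 with all probe sets averaged (0.40). PES1 had 9.44 and 9.51 in CUTL1 with PD-0332991, against 9.07 and 9.23 with DMSO. The values in CEM were 9.30 and 9.40 against 9.70 and 9.53, in DND41 9.45 and 9.40 against 9.52 and 9.51, and in Jurkat 9.79 and 9.84 against 10.04 and 9.79. Treated and vehicle arrays overlapped in Jurkat alone. PES1 rose by 0.33 in CUTL1 (SE 0.094, limma adjusted p = 0.0221), and its difference of 0.48 (SE 0.11, adjusted p = 0.0301) lost its call in 9 of the 16 fits that left out 1 array, with adjusted p-values of up to 0.141. It was also lost with both probe sets averaged (0.20, adjusted p = 0.285), with cyclic loess (0.0507), with no filter on dim genes (0.0539) and with a replicate block (0.0884). The other PES1 probe set had the opposite sign in the CUTL1 change and in this difference, called in neither.

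POLR1C, a subunit that RNA polymerases I and III share, rose by 0.54 in CUTL1 (SE 0.085, limma adjusted p = 0.000564). Its levels there were 9.53 and 9.49 with PD-0332991 and 8.92 and 9.02 with DMSO. CEM had 9.27 and 9.05 against 9.04 and 8.91, DND41 9.59 and 9.66 against 9.81 and 9.88, and Jurkat 10.01 and 9.91 against 9.78 and 9.85. No treated group overlapped its control, and DND41 was the line where the treated arrays were lower. The difference of CUTL1 was 0.50 (SE 0.098, adjusted p = 0.0134), and was not called without DMSO replicate 1, PD-0332991 replicate 1 or PD-0332991 replicate 2 of CUTL1 (adjusted p of up to 0.0868). A second POLR1C probe set of equal brightness gave 0.56. POLR1A, the largest subunit of RNA polymerase I, had 8.07 and 8.09 in treated CUTL1 against 7.51 and 7.65 in vehicle, 7.40 and 7.84 against 7.34 and 7.41 in CEM, 8.11 and 7.78 against 7.65 and 7.80 in DND41, and 8.26 and 8.11 against 7.94 and 7.92 in Jurkat. Its arrays separated in CUTL1 and Jurkat. It rose by 0.50 in CUTL1 (SE 0.14, limma adjusted p = 0.0200) and by 0.31 on average over the 4 lines (SE 0.070, adjusted p = 0.00345), and its difference of CUTL1 was 0.26 (adjusted p = 0.455). The CUTL1 rise was not called without DMSO replicate 1 or either PD-0332991 replicate of CUTL1 (adjusted p of up to 0.119) or with all probe sets averaged (0.25, adjusted p = 0.0772), and the 2 other POLR1A probe sets averaged 0.06 and 0.04.

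NPM3, a nucleoplasmin family member of the nucleolus, was sixth by p. It was at 9.86 and 9.79 in treated CUTL1 against 9.58 and 9.63 in vehicle, at 9.94 and 9.93 against 10.11 and 10.16 in CEM, at 10.14 and 9.99 against 10.18 and 10.32 in DND41, and at 10.95 and 10.998 against 10.87 and 10.94 in Jurkat. The treated arrays were higher in CUTL1 and Jurkat and lower in CEM and DND41. It rose by 0.22 in CUTL1 (SE 0.074, limma adjusted p = 0.0463), while the difference of 0.33 (SE 0.086) had an adjusted p of 0.0546.

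**Figure D4:**
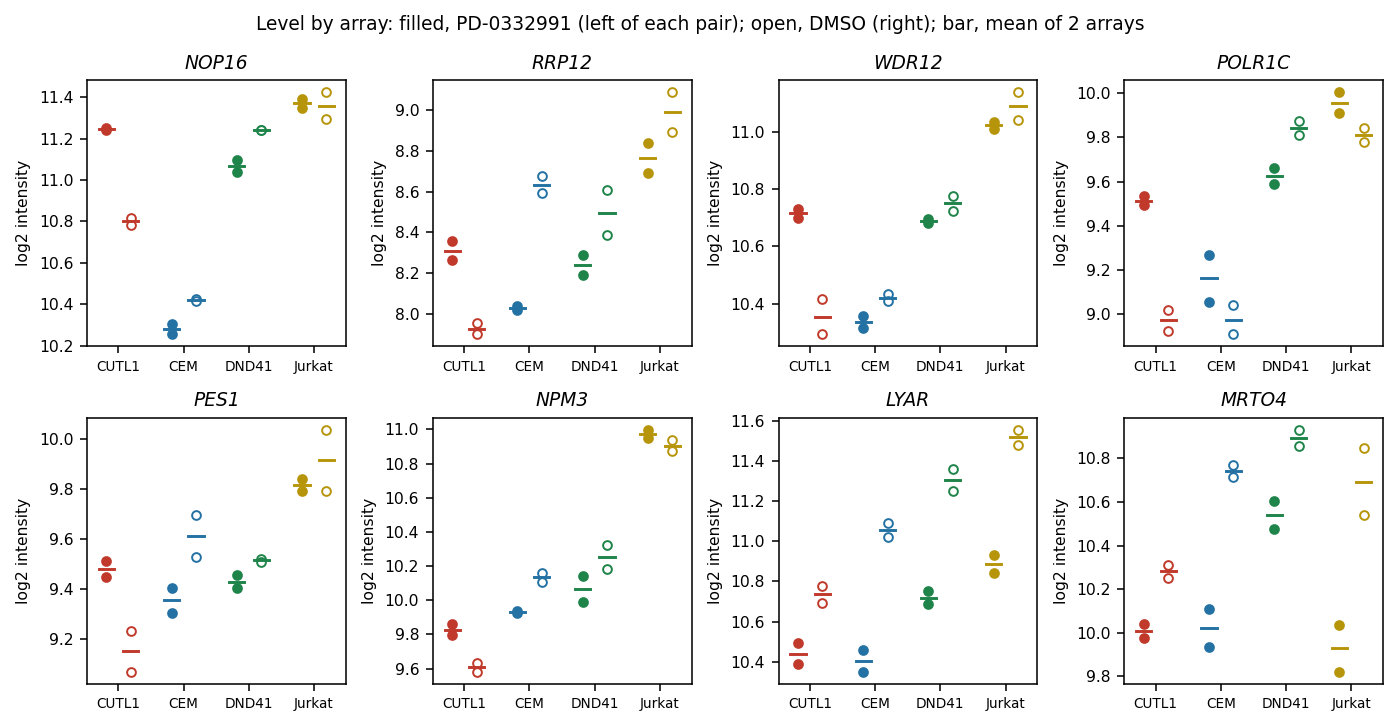
Log2 intensity of NOP16, RRP12, WDR12, POLR1C, PES1, NPM3, LYAR and MRTO4 on each of the 16 arrays, with PD-0332991 arrays (filled) left of DMSO arrays (open) in each line and bars at the mean of 2 arrays. For the first 6 genes the filled points of CUTL1 lie above its open points, and for LYAR and MRTO4 the filled points lie below in every line.

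LYAR, MRTO4, TCOF1, UTP4 and TSR1 were called lower in at least 3 of the 4 lines. On average over the 4 lines 16 of the 35 genes fell (20% of all tested genes did) and 3 rose (26.7% did), with a median of -0.07 against 0.04 over all genes. With each line taken as 1 replicate, 5 fell and 1 rose, where 9.53% of all genes fell and 9.35% rose. The 3 that rose were POLR1A, POLR1C (0.17) and NOB1 (0.15), the endonuclease that cuts the end of 18S RNA.

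LYAR, a nucleolar zinc-finger protein of early pre-ribosomes, fell in every line and by the most on average. It stood at 10.49 and 10.39 with PD-0332991 against 10.78 and 10.69 with DMSO in CUTL1, 10.46 and 10.35 against 11.09 and 11.02 in CEM, 10.68 and 10.75 against 11.36 and 11.25 in DND41, and 10.93 and 10.84 against 11.56 and 11.48 in Jurkat. The groups overlapped in no line. LYAR fell by 0.54 on average (SE 0.038, limma adjusted p = 3.56e-07), by 0.65, 0.59 and 0.63 in CEM, DND41 and Jurkat and by 0.29 in CUTL1 (adjusted p = 0.0135). The CUTL1 call was lost without DMSO replicate 1 or PD-0332991 replicate 2 of that line (adjusted p of up to 0.112). A second LYAR probe set averaged -0.52.

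MRTO4, which holds the place of the stalk protein P0 on the young large subunit, had 9.98 and 10.04 in treated CUTL1 against 10.31 and 10.25 in vehicle. CEM had 9.93 and 10.11 against 10.77 and 10.71, DND41 10.60 and 10.48 against 10.86 and 10.93, and Jurkat 10.04 and 9.82 against 10.85 and 10.54. All treated arrays were below their controls. It fell by 0.53 on average (SE 0.054, limma adjusted p = 8.84e-06), by 0.72 in CEM, 0.35 in DND41 and 0.76 in Jurkat, and its CUTL1 change of -0.27 was not called (adjusted p = 0.0855).

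TCOF1 encodes treacle, a factor for transcription of ribosomal DNA, and was the member that fell most in CUTL1. There it was at 7.86 and 8.07 with PD-0332991 against 8.52 and 8.38 with DMSO. The values were 7.76 and 7.70 against 8.05 and 7.87 in CEM, 7.78 and 7.95 against 8.40 and 8.46 in DND41, and 8.38 and 8.24 against 8.82 and 8.60 in Jurkat. The treated arrays lay below the vehicle arrays in every line. TCOF1 fell by 0.42 on average (SE 0.054, limma adjusted p = 5.18e-05), by 0.48 in CUTL1, 0.57 in DND41 and 0.40 in Jurkat, with -0.23 in CEM not called (adjusted p = 0.145). A second probe set averaged -0.48, but the dimmest of the 3 averaged 0.03, and it is the one left when _x_at and _s_at sets are removed. The CUTL1 call was lost without DMSO replicate 1 (adjusted p = 0.0509) or PD-0332991 replicate 1 (0.0650) of CUTL1 and with all probe sets averaged (-0.22, adjusted p = 0.100). The Jurkat call was lost without DMSO replicate 1 (0.143) or PD-0332991 replicate 2 (0.128) of Jurkat.

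UTP4 and TSR1 serve small subunit assembly, UTP4 early in the processome on the precursor and TSR1 late in the cytoplasm. UTP4 was at 10.13 and 10.07 in treated CUTL1 against 10.40 and 10.26 in vehicle, 10.84 and 10.87 against 11.51 and 11.32 in CEM, 10.84 and 10.89 against 11.21 and 11.28 in DND41, and 10.12 and 10.19 against 10.55 and 10.39 in Jurkat. It fell by 0.37 on average (SE 0.043, limma adjusted p = 2.40e-05), with -0.23 in CUTL1 not called (adjusted p = 0.0749). TSR1 had 9.28 and 9.33 against 9.40 and 9.48 in CUTL1, 9.06 and 8.99 against 9.60 and 9.51 in CEM, 9.12 and 9.21 against 9.52 and 9.54 in DND41, and 9.47 and 9.40 against 9.77 and 9.80 in Jurkat. For both genes the treated arrays were the lower ones in every line. TSR1 fell by 0.35 on average (SE 0.034, limma adjusted p = 5.22e-06), with -0.14 in CUTL1 not called (adjusted p = 0.158), and of its 3 other probe sets 1 averaged 0.08 and 2 averaged -0.37 and -0.16. The last is the one left without _x_at and _s_at sets, with an adjusted p of 0.0526.

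UTP15, a partner of UTP4 in the same early subcomplex, passed the test in DND41 and not in CUTL1, CEM or Jurkat. It was at 7.65 and 8.07 there with PD-0332991 against 8.86 and 8.76 with DMSO, a fall of 0.95 (SE 0.16, limma adjusted p = 0.00112), 1.93-fold. In CUTL1 it was at 8.22 and 8.21 against 8.07 and 8.02, in CEM at 8.09 and 7.91 against 8.21 and 8.03, and in Jurkat at 8.95 and 8.83 against 8.64 and 9.10, with changes of -0.12 to 0.17. The F test among lines gave an adjusted p of 0.0221 for this gene, and a second, dimmer probe set gave -0.47 in DND41.

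By role, the 4 RNA polymerase I genes were POLR1A and POLR1C, which rose in CUTL1, TCOF1, which fell, and POLR1B, the second largest subunit, at 0.23 in CUTL1 (not called) and called lower in DND41 at -0.26. The 5 snoRNP genes moved by -0.16 to 0.15 in CUTL1, none of them called. The box C/D methyltransferase FBL moved by -0.12 to 0.04 in all 4 lines, none called, and NOP58, its partner, fell by 0.50 in DND41. NOLC1, a snoRNP chaperone, fell by 0.43 in DND41, NHP2 of the box H/ACA particle fell by 0.27 in CEM, and GAR1 of the same particle fell by 0.10 on average. The NOLC1 change depended on the probe set. The used one averaged -0.17 over the lines, and 2 dimmer ones averaged -0.45 and -0.50. These 2 gave -0.57 and -0.36 in CEM, -0.40 and -0.64 in Jurkat, and -0.19 and -0.14 in CUTL1, where the used one gave 0.12.

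Among 14 small subunit genes 2 rose in CUTL1, RRP12 and NOB1 (0.38), and 0 fell, while 6 fell in CEM, 7 in DND41 and 2 in Jurkat. Over all tested genes 14.6% rose and 12.7% fell in CUTL1, and 11.6%, 17.1% and 11.4% fell in CEM, DND41 and Jurkat. The rises in CUTL1 and the falls in Jurkat (14.3% of the 14 genes each) were thus close to the background. UTP20 of the processome fell by 0.53 in CEM, HEATR1 of the processome by 0.27 in CEM, and RRP9, a protein of the U3 snoRNP, by 0.26 in CEM and 0.37 in DND41. NOP14, WDR43 and PNO1, the partner of NOB1, fell in DND41 by 0.35, 0.27 and 0.33. WDR3, BYSL and the helicase DDX10 passed in no line, with changes in CUTL1 of 0.22, 0.27 and 0.18. Of the 7 large subunit genes 3 rose in CUTL1, PES1, WDR12 and NOP16. With the probe sets used, the sole one of the 7 called in another line was MRTO4. NOP2, which methylates 28S RNA, RRS1 and RRP1B were at 0.24, 0.22 and 0.08 in CUTL1, none called. The nucleolar proteins NCL, NPM1 and DDX21, a helicase, fell in DND41, by 0.51, 0.24 and 0.32. Of 2 other NPM1 probe sets 2 were called lower in CEM, where the used one was not called.

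The levels without the drug also set CUTL1 apart. On the DMSO arrays 19 of the 35 genes were lower in CUTL1 than in the mean of the other lines (25.7% of all tested genes were) and 1, NPM1, a histone chaperone of the nucleolus, was higher at 0.19 (22% were). The median difference was -0.21, and 32 of the 35 were negative. The lowest were UTP20 (-0.92), NPM3 (-0.82), RRP12 (-0.78) and UTP4 (-0.71). CUTL1 had the lowest DMSO level of the 4 lines for 20 of the 35 genes (25.9% of all genes), and Jurkat the highest for 27 (30.1%).

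On the PD-0332991 arrays genes of the list were called in both directions. The shares, 17.1% higher and 25.7% lower, were close to those over all tested genes. The median was -0.0049, 16 genes were above 0 and 19 below, with 6 genes called higher (21.6% of all tested genes) and 9 lower (25.3%), a comparison added after the data were seen. CUTL1 had the lowest level for 6 of the 35 genes (24.2% of all genes), CEM for 22 (26.6%), and Jurkat the highest for 26 (32.0%). NOP16 was higher in CUTL1 than in the other lines by 0.34 with PD-0332991 and lower by 0.21 with DMSO. RRP12, WDR12, POLR1C and PES1 stood at -0.03, 0.03, -0.07 and -0.05 with PD-0332991, none called, and at -0.78, -0.40, -0.57 and -0.53 with DMSO, all called. NPM3, PNO1, UTP4 and UTP20 stayed lower on the treated arrays (-0.50, -0.38, -0.52 and -0.76). These are the same arrays as in the difference of changes, which is the treated gap minus the vehicle gap, so the comparisons are not independent.

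**Figure D5:**
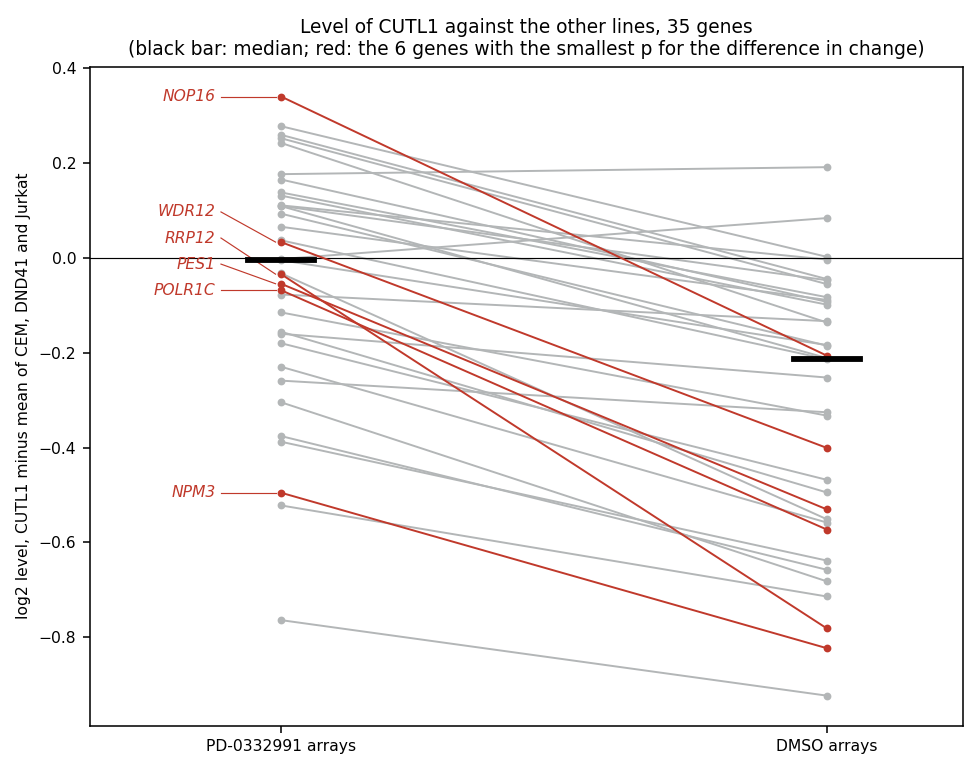
Log2 level of CUTL1 minus the mean of CEM, DND41 and Jurkat for each of the 35 genes, on the PD-0332991 arrays (left) and the DMSO arrays (right); lines join the same gene and black bars mark the medians of -0.0049 and -0.21. The 6 genes with the smallest p for the difference in change are red, and of these NOP16 is the one that lies above 0 by more than 0.1 on the left.

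Genes with and without an E-box were set side by side. In the difference of CUTL1 from the other lines the 14 measured genes with an E-box had a median of 0.26 and the 15 with a window and none had 0.28. In the change of CUTL1 itself, 1 of the 14 with an E-box rose and 1 fell (median 0.03). Of the 15 without, 6 rose and 0 fell (median 0.22), where 14.6% of all tested genes rose and 12.7% fell. In the mean change of CEM, DND41 and Jurkat, 10 of the 14 with an E-box fell (median -0.18) and 5 of the 15 without fell (median -0.08), where 18.6% of all tested genes were called lower and 23.2% higher. None of those counts were set against each other in a test.

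Other genes of the pathway were counted from lists of their own. Of 127 further assembly genes tested, 22 rose and 17 fell in CUTL1, 3 and 34 in CEM, 1 and 46 in DND41, and 0 and 29 in Jurkat. The CUTL1 shares of 17.3% and 13.4% were close to those over all tested genes (14.6% and 12.7%). In CEM, DND41 and Jurkat 26.8%, 36.2% and 22.8% fell, against 11.6%, 17.1% and 11.4% of all tested genes. Of all tested genes 16.5%, 11.1% and 15.6% rose in these lines. The change in CUTL1 exceeded that of the other lines for 113 of the 127 (median 0.21), with 10 called and 0 called lower by limma. Over all tested genes 1.54% were called higher and 3.03% lower in this difference. At an unadjusted p under 0.05 the rises in Jurkat numbered 3 (22.6% of all tested genes rose). In the difference of CUTL1 from the other lines 2 were lower (9.70% of all tested genes). The polymerase I subunit POLR1H rose in CUTL1 by 0.40, URB1, a large subunit factor, by 0.59, UTP3 of the processome by 0.44, ZNHIT6, a box C/D assembly factor, by 0.35 and EXOSC4 of the RNA exosome by 0.42. Falls in CUTL1 were led in their lists by EXOSC9, another exosome subunit (-0.98), TTF1, which terminates polymerase I transcription (-0.68), EFL1, a GTPase that frees the late large subunit (-0.48), RRP7A of the small subunit (-0.43) and PIH1D1, a box C/D assembly factor (-0.33). On average over the lines EXOSC9 fell by 0.89, TAF1A of the polymerase I promoter complex by 0.61, BRIX1, a large subunit factor, by 0.47, RRP7A by 0.40 and NAF1, an H/ACA assembly factor, by 0.35. POLR1D (0.24), UTP3 (0.24), URB1 (0.28), EXOSC4 (0.12) and NOP10, an H/ACA protein (0.09), rose.

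Few ribosomal protein genes were called. Of 80 listed genes 52 were tested. Of these 52, 10 rose and 0 fell on average (14 and 0 at an unadjusted p under 0.05), with a median of 0.04, as over all genes, and RPL3 rose most, by 0.20. Over all tested genes 26.7% rose and 20% fell (30.4% and 21.9% at an unadjusted p under 0.05). In CUTL1 5 rose, led by RPL12 (0.28), and 1, RPL27A, fell (-0.82, SE 0.26), where 14.6% and 12.7% of all tested genes did. In the difference of CUTL1 from the other lines 0 were called, and at an unadjusted p under 0.05 there were 0 higher and 1 lower. Over all tested genes 1.54% were called higher and 3.03% lower there (8.43% and 9.70% at an unadjusted p under 0.05).

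MYC itself was not a member. It had 11.57 and 11.41 in treated CUTL1 against 10.99 and 10.81 in vehicle, 11.39 and 11.54 against 11.29 and 11.37 in CEM, 12.13 and 12.08 against 11.50 and 11.61 in DND41, and 11.75 and 11.73 against 12.03 and 11.79 in Jurkat. The treated arrays were above the vehicle arrays in CUTL1, CEM and DND41 and below them in Jurkat. MYC rose by 0.59 in CUTL1 (SE 0.10, limma adjusted p = 0.00113) and by 0.55 in DND41 (SE 0.10, adjusted p = 0.00225), and CEM (0.13) and Jurkat (-0.17) did not pass. Its difference of CUTL1 from the mean of the others was 0.42 (adjusted p = 0.0711). On the DMSO arrays MYC was lower in CUTL1 by 0.70 (adjusted p = 2.35e-05).

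Control probe sets for ribosomal RNA served as array quality measures. The 18S ribosomal RNA probe sets averaged 12.98 with PD-0332991 (SD 0.372, n = 8) and 13.19 with DMSO (SD 0.271, n = 8), with a two-sided p of 0.177 by an exact permutation of arrays within lines (adjusted over 5 such measures, 0.741). By line the 18S difference was -0.49 in CUTL1, 0.25 in CEM, -0.64 in DND41 and 0.04 in Jurkat. The 28S probe sets differed by 0.04 (exact permutation p = 0.460, n = 8 and 8). The hybridisation spikes differed by -0.26 in CUTL1. The actin 3 prime minus 5 prime measure of RNA quality differed by 0.14 in CUTL1, 0.27 in CEM, -0.35 in DND41 and 0.10 in Jurkat (exact permutation p = 0.690 over the lines). The part of these values in the results above was not tested.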

How the data were processed

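RNA of 16 samples was amplified and hybridised to Affymetrix U133 Plus 2.0 arrays. The deposited values are linear intensities, summarised by the authors with RMA per the submitters' processing notes (no version is stated). The test had been planned for log2 values, so log2 of the deposited intensities was taken, with no pseudocount. Of 54675 probe sets 41097 had 1 gene symbol, 1801 several and 11777 none. The brightest probe set stood for each gene, and genes whose mean was below the median of all values (log2 4.88) in every line were left out. Group means of the 8 groups were fitted with limma 3.58.1 in R 4.3.3 (lmFit, eBayes), two-sided, with Benjamini-Hochberg adjustment over 13483 genes. The fit was tested on simulated data. Members and lists were chosen with earlier results of these data known. Genes given array by array are the 6 with the smallest p for CUTL1 against the other lines, the 5 with the largest called average change, and in each line the 3 largest called rises and falls. Alternatives covered scaling, probe set choice, the dim filter, the variance prior, a replicate block, lines as replicates and each array left out. Promoter windows came from RefSeq (GRCh38.p14).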

Additional observations from a re-analysis of the deposited data

Results flagged for a closer look

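The change with PD-0332991 differed between lines by a test of the difference itself for 9 of the 35 genes. By the F test 12.6% of all tested genes were called. With a replicate block the F count was close to the background (counts at the end). The change in CUTL1 minus the mean change of CEM, DND41 and Jurkat was 0.50 for POLR1C, 0.75 for RRP12, 0.48 for PES1, 0.43 for WDR12 and 0.55 for NOP16 on the log2 scale, each called by limma. The F test among the 4 lines gave adjusted p-values of 0.0359 for NHP2, 0.0221 for UTP15, 0.0360 for PNO1 and 0.0421 for NPM3. NHP2 was at 0.15, -0.27, -0.04 and 0.07 in CUTL1, CEM, DND41 and Jurkat, and PNO1 at 0.14, -0.12, -0.33 and 0.01.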

How the results depend on the processing

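Without _x_at and _s_at probe sets 28 of the genes were left. Of these, 0 fell in CUTL1, 3 in CEM, 10 in DND41, 2 in Jurkat and 8 on average. The F test called 5, and 0 were higher in CUTL1 on DMSO arrays. The falls in DND41 and on average and the F calls were more frequent than over all genes in this setting. The falls in CEM and Jurkat were close to the background. Falls in CUTL1 and higher levels on its DMSO arrays were less frequent than over all genes. TCOF1 then reversed, to 0.030 on average, 0.14 in CUTL1 and 0.14 in DND41, since a dimmer probe set stood for it. With all probe sets averaged, 4 genes rose in CUTL1 (12.7% of all genes did) and 0 were higher on DMSO arrays (21.8%). With an intensity trend in the prior, 4 fell in CUTL1, 14 in CEM and 8 in Jurkat, 15 were called in the difference of CUTL1 and 19 by the F test, where 13.5%, 12.4%, 12.3%, 2.48% and 19.3% of all genes were. Quantile normalization and cyclic loess each called 1 gene higher in DND41. The F test called 5 with cyclic loess and 5 with no filter on dim genes, where 11.9% and 5.88% of all genes were. With each line as 1 replicate, 1 rose and 5 fell on average. The 28S difference was -0.028 and -0.057 from its 5 prime and middle probe sets alone and 0.19 from the 3 prime one (exact permutation p = 0.0123). The cause of these shifts was not tested.

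Leaving out 1 array at a time gave 4 to 8 genes rising and 0 to 3 falling in CUTL1, 0 to 1 rising and 6 to 11 falling in CEM, 9 to 16 falling in DND41, 3 to 6 falling in Jurkat, 13 to 16 falling on average, 2 to 6 called in the difference of CUTL1, 3 to 11 by the F test, and 0 to 1 higher and 19 to 22 lower in CUTL1 on DMSO arrays. Rising genes in CUTL1 numbered 4 without its DMSO replicate 1 or PD-0332991 replicate 1. Falling genes numbered 9 in DND41 without its DMSO replicate 1 or PD-0332991 replicate 1, and 3 in Jurkat without its DMSO replicate 1 or PD-0332991 replicate 2.

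The labels do not state whether same-numbered arrays were paired. Deviations of same-numbered arrays correlated at 0.195 in CUTL1, 0.076 in CEM, -0.108 in DND41 and 0.105 in Jurkat, which does not settle it. With the number as a replicate block, 6 rose and 2 fell in CUTL1, 8 fell in CEM, 14 in DND41 and 5 in Jurkat. On average 14 fell, and 4 were called in the difference of CUTL1. The F test called 3, a share close to that over all tested genes, so this setting showed no excess by that test.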
